A study of Mus musculus with 7 samples.

Results

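The genes described here are 36 cell cycle and DNA replication genes, taken by symbol from a list of 17 S phase genes and 19 mitotic genes, in mouse colon after repeated TNBS enemas. Of these, 32 had at least 1 probe set that the platform annotation gives to that gene alone, of 8251 genes in all, and 22 reached a signal of 100 in at least 1 RNA pool, of 4314 such genes. The S phase list holds E2f1, Ccne1, Mcm2 to Mcm7, Pcna, Prim1, Pola1, Fen1, Lig1, Rrm1, Rrm2, Tk1 and Tyms. The mitotic list holds Mki67, Birc5, Top2a, Ccna2, Ccnb1, Ccnb2, Cdk1, Cdc20, Bub1, Bub1b, Mad2l1, Plk1, Aurka, Aurkb, Kif11, Hmmr, Cenpa, Stmn1 and Cks2. Tyms was on probe sets shared with Tyms-ps and is given no value. Ccnb1, Bub1b and Hmmr had no probe set with that symbol and so have no signal here. These genes appear in the promoter windows alone.

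Colon RNA of female CD-1 outbred mice, 10 to 12 weeks old at the start, was measured on Affymetrix oligonucleotide arrays. The mice received 6 enemas, either of the hapten trinitrobenzene sulphonic acid (TNBS) in ethanol, used to induce colitis, or of saline. The TNBS pools held RNA of 6 mice killed at week 6 (3 days after the enemas), 4 mice at week 8 (2 weeks after), 5 mice at week 10 (4 weeks after) and 4 mice at week 12 (6 weeks after). The week 6 saline pool held RNA of 5 mice and was hybridised on 2 arrays, and the later saline pool held RNA of 4 mice, 2 of week 8 and 2 of week 10. Each pool thus stands for 1 sample, no group of ethanol without TNBS is among the samples, week 12 has no saline pool of its own age, and the 3 later comparisons share 1 saline pool.

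A dividing cell first copies its DNA in S phase and later separates the copies in mitosis. S phase genes encode the MCM helicase that opens the double helix, the polymerase, clamp, nuclease and ligase that make the new strands, and the enzymes that supply nucleotides. Their transcription is driven largely by E2F factors, whereas many mitotic genes are switched on later through promoter elements known as CHR and CCAAT boxes. In the colon, division takes place mostly in the crypt base, and leukocytes that divide in mucosa and lymphoid follicles add to the same transcripts.

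RefSeq promoter windows on GRCm38.p6, from 250 bases before to 50 bases after the annotated start, were found for 32 of the 36 genes; Aurkb, Ccna2, Mcm4 and Stmn1 had no match. The bases directly before the start are shown for 4 mitotic genes and 2 S phase genes, because these carry the letters found more often in their list or, in Mad2l1, none of them. Each runs 5′ to 3′ along the gene's strand, and capitals mark matches on either strand to E2F (TTCCCGC or TTGGCGC or TTCGCGC), CHR (TTTGAA or TTCGAA) and CCAAT letters.
Mki67, chr7:135716380-135716562, minus strand: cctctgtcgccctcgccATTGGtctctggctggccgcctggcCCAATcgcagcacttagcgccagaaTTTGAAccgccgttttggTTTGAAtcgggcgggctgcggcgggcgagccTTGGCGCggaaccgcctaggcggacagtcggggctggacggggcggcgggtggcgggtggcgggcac
Top2a, chr11:99024190-99024372, minus strand: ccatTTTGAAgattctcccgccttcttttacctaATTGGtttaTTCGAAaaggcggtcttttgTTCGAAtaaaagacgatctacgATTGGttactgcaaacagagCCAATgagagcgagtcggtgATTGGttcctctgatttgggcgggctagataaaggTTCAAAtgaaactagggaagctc
Cdk1, chr10:69352913-69353095, minus strand: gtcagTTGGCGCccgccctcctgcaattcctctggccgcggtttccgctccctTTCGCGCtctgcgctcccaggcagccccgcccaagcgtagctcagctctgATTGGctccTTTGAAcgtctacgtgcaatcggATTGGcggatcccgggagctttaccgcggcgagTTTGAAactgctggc
Mad2l1, chr6:66535038-66535220, plus strand: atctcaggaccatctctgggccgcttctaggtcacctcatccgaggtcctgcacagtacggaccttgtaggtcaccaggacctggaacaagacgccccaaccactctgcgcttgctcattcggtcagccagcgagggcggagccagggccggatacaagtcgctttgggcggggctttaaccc
Mcm5, chr8:75109326-75109508, plus strand: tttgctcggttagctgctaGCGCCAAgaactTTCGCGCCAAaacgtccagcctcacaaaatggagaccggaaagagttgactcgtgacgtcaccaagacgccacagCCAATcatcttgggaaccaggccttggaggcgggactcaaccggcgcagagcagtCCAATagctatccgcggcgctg
Rrm1, chr7:102441512-102441694, plus strand: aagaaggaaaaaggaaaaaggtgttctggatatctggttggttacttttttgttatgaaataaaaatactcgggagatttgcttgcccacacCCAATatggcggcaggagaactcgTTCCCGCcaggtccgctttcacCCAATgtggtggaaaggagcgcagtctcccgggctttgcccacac
Mki67 held CHR letters beginning at -116 and -98 from the start and E2F letters at -67. Top2a held 4 CHR matches, at -179, -140, -120 and -23, and no E2F match. Cdk1 held both kinds, with CHR letters at -71 and -15 and E2F letters at -178 and -130. Mcm5 held E2F letters at -164, -152 and -149, of which the last pair overlap, and Rrm1 held them at -67, and neither held CHR letters.

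Over the lists, CHR letters stood in 12 of 16 mitotic promoters (75.0%) and in 3 of 16 S phase promoters (18.8%), and in 19.4% of all 27025 mouse promoters in the table. E2F letters stood in 4 of 16 mitotic promoters and in 7 of 16 S phase promoters (43.8%), and in 8.21% of all promoters. CCAAT letters were found in 14 of 16 mitotic promoters (87.5%) and 10 of 16 S phase promoters (62.5%), and in 37.9% of all promoters. Median GC content was 57.8% in mitotic, 57.0% in S phase and 52.7% in all promoters, and in 3 genes sites of different motifs overlapped. Birc5 and Mad2l1 held no match among the mitotic genes. A match is a description of the letters and was not tied to binding, and a window without one says nothing about the factor.

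**Figure D1:**
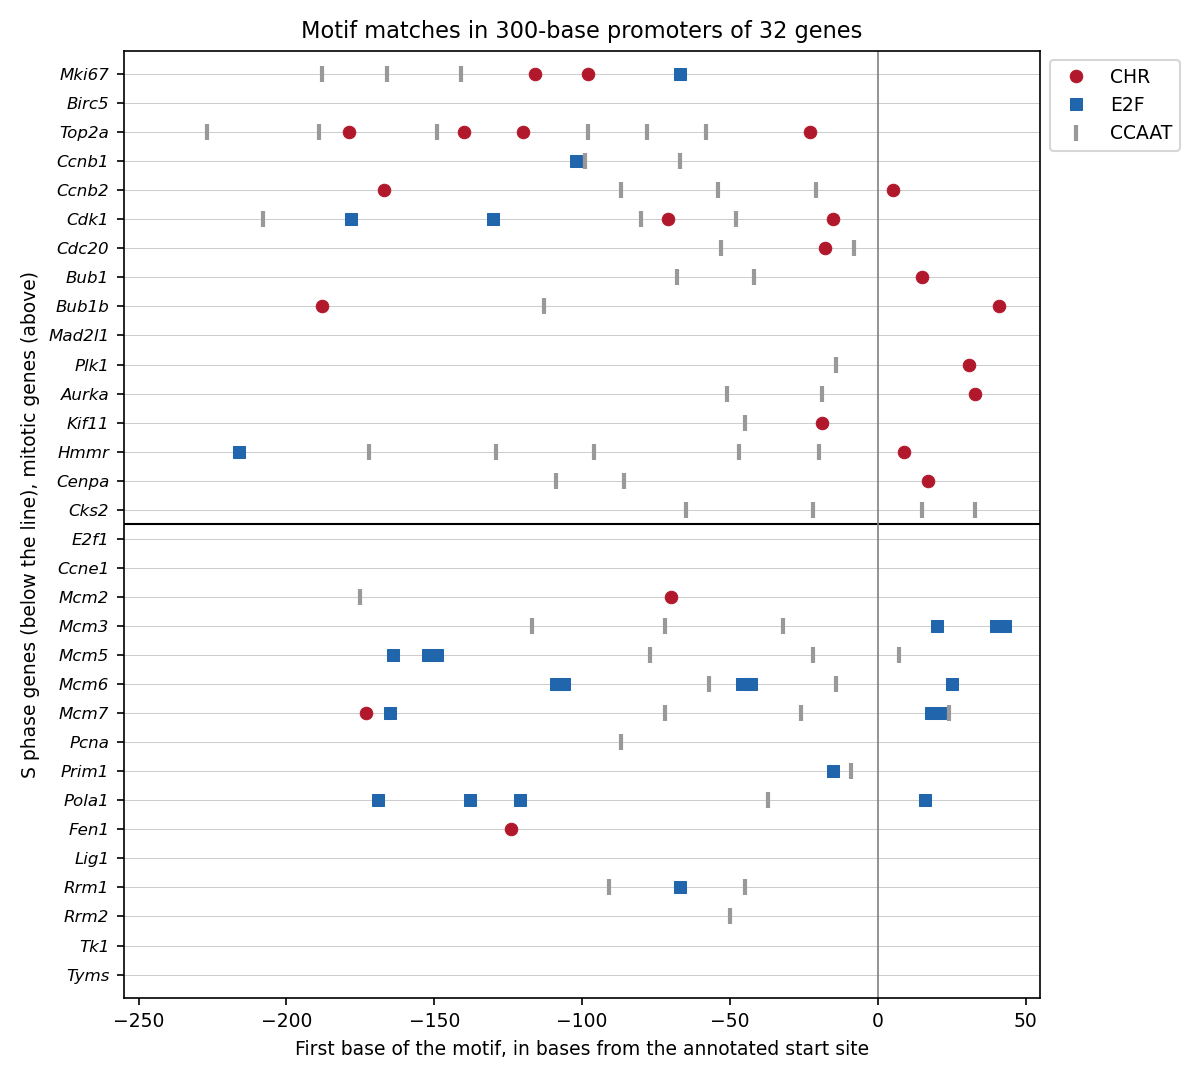
Matches to CHR (circles), E2F (squares) and CCAAT (bars) letters along the 300-base promoter windows of 32 genes, by distance in bases from the annotated start; genes with no measured value are included. Circles stand in 12 of 16 mitotic rows and in 3 of 16 S phase rows.

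All values below are signal intensities scaled by the authors to a target of 150 on each array. Differences are of log2 signal, TNBS over saline, with signals under 50 set to 50. The 7 arrays had median signals of 51.8 to 61.2, and 45.4% to 49.2% of their probe sets lay under 50. The colon label was met by Krt20, Vil1, Lgals4 and Car1, markers of colon epithelium, at 2699.5 to 5085.9, 642.9 to 1155.6, 4069.4 to 8506.7 and 1156.1 to 4224.4, while Muc2 had no probe set of its own here. Cdh1, an epithelial marker also chosen for this check, read lower, at 90.1 to 216.3. Beta-actin 3′ to 5′ probe set ratios, a sign of RNA quality, were 1.24 on the TNBS week 6 array and 1.14 and 1.23 on the week 6 saline arrays, and 0.798 to 0.818 on the 4 later arrays. Each comparison of TNBS with saline lies within 1 of these sets of arrays.

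At week 6, mitotic genes were higher in TNBS colon than in saline colon in 12 of 12 cases, with a median log2 difference of 0.71, and S phase genes in 9 of 10, with a median of 0.31. Over all 4314 genes, 47.3% were higher and the median was -0.02. In all, 4 genes differed at least 2-fold, and these were the mitotic genes Mki67, Mad2l1, Birc5 and Top2a; 2.55% of all genes were as much higher and 0.997% as much lower. Top2a and Aurkb reached 100 in TNBS pools alone, so the filter fixed that they were higher at week 6, and they lend these counts no support. Among genes with at least 100 in both saline pools, a subset chosen after the values were seen, 8 of 8 mitotic and 7 of 8 S phase genes were higher, and Mki67 alone was at least 2-fold higher. Of all 3538 genes of that subset, 44.5% were higher and 46 were at least 2-fold higher. In a bulk sample, fewer cells of a type and less RNA per cell cannot be told apart, and with 1 pool a side no comparison at a single week has a test.

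Mki67, the antigen used to stain dividing cells, had a signal of 258.6 in TNBS colon at week 6, 280.5 at week 8, 149.0 at week 10 and 193.8 at week 12, against 103.6 and 97.6 on the week 6 saline arrays and 191.8 in later saline. It was 2.57-fold higher with TNBS at week 6 (log2 1.36), 1.46-fold higher at week 8 and 1.29-fold lower at week 10. TNBS pools of weeks 6 and 8 lay above every saline array, but the later saline pool itself lay 1.91-fold above the week 6 saline pool. A second Mki67 probe set lay near or under 50 on every array. At week 6 it read 49.7 in TNBS colon and 48.2 and 51.8 in saline, without a difference.

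Mad2l1, a spindle checkpoint protein that holds back chromosome separation, read 205.9, 260.6, 180.0 and 133.9 in TNBS colon at weeks 6, 8, 10 and 12, against 82.1 and 79.7 in week 6 saline and 126.5 in later saline. Its log2 differences were 1.35, 1.04, 0.51 and 0.08 at weeks 6, 8, 10 and 12. All 4 TNBS pools were above all saline arrays, and the highest was that of week 8.

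Birc5, or survivin, a chromosomal passenger protein that also inhibits apoptosis, read 225.4, 139.7, 77.7 and 93.5 in TNBS colon at weeks 6, 8, 10 and 12, against 95.6 and 91.6 in week 6 saline and 131.7 in later saline. It was 2.41-fold higher at week 6, near its control at week 8 (log2 0.09) and 1.69-fold lower at week 10. The TNBS pool of week 10 was below every saline array, which places Birc5 at opposite ends of the saline values at weeks 6 and 10.

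Top2a, the topoisomerase that untangles chromosomes before they separate, read 142.8, 112.5, 59.0 and 74.5 in TNBS colon at weeks 6, 8, 10 and 12, against 67.7 and 75.1 in week 6 saline and 75.4 in later saline. The difference was 2.00-fold at week 6 and 1.49-fold at week 8, with TNBS higher. No saline array reached 100, so Top2a entered the 22 genes through the TNBS pools of weeks 6 and 8, which therefore had to be above saline. At weeks 10 and 12 its TNBS signal was below later saline (log2 -0.35 and -0.02).

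**Figure D2:**
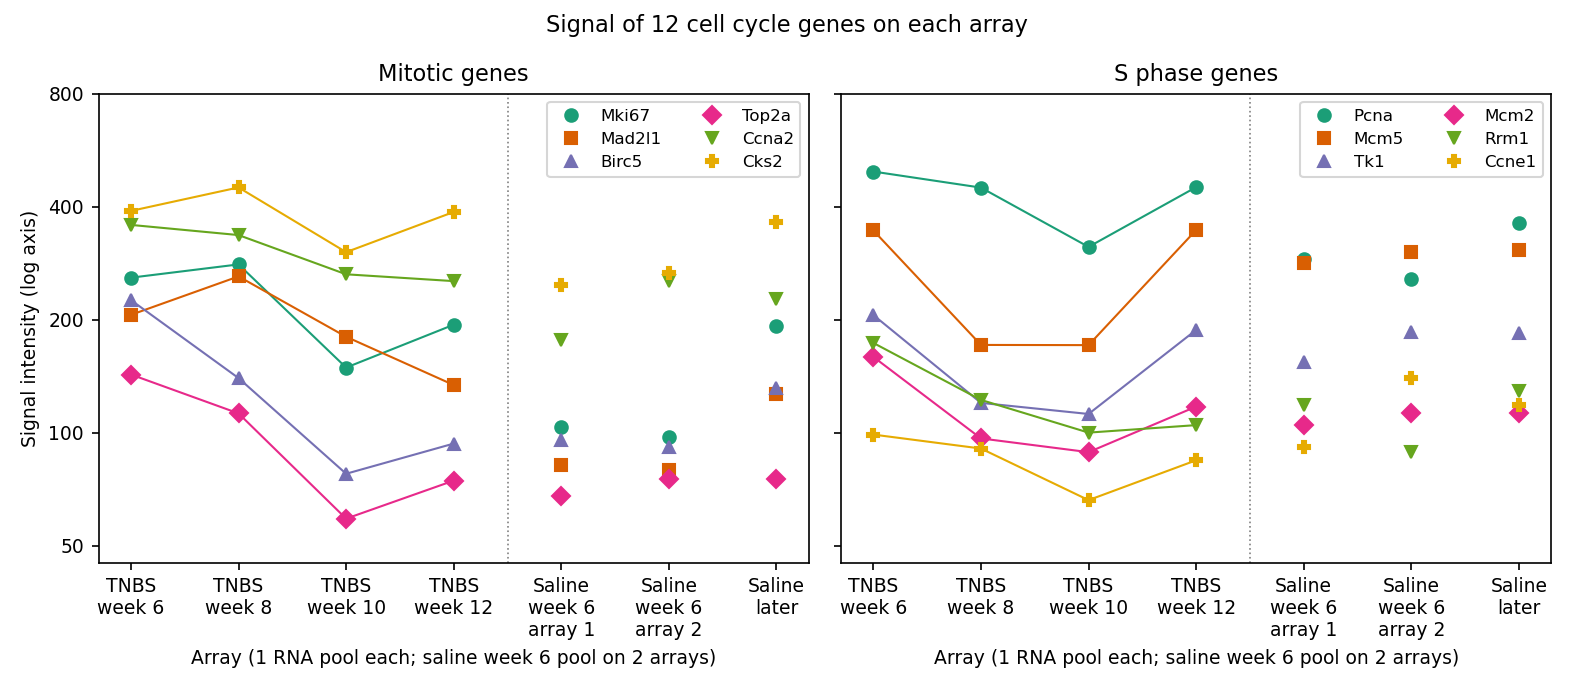
Signal intensity (log axis) of 6 mitotic genes (left) and 6 S phase genes (right) on each of the 7 arrays, with TNBS pools joined by a line in order of week and saline arrays right of the dotted line. Mki67 and Mad2l1 are highest at week 8, whereas Mcm5 reads 345.4 at week 6 and 171.2 at week 8.

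Among the cyclins and their kinase, Ccna2 (cyclin A2) read 357.4, 335.8, 264.0 and 253.2 in TNBS colon at weeks 6, 8, 10 and 12, against 176.9 and 252.6 in week 6 saline and 227.4 in later saline. Ccnb2 (cyclin B2) read 532.0, 529.1, 393.6 and 472.2 in the TNBS pools, against 319.1 and 349.9 in week 6 saline and 465.8 in later saline. Cdk1, the kinase both cyclins activate, read 261.6, 222.4, 228.6 and 190.0 in the TNBS pools, against 191.6 and 173.4 in week 6 saline and 200.2 in later saline. All of these were above every saline array at weeks 6 and 8, by log2 0.76, 0.67 and 0.52 over matched saline at week 6. For Ccna2 the week 6 saline arrays themselves differed by log2 0.51.

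Plk1, a kinase that drives mitotic entry, read 161.5, 147.8, 77.6 and 95.4 in TNBS colon at weeks 6, 8, 10 and 12, against 119.3 and 95.8 in week 6 saline and 115.2 in later saline. Cdc20, which activates the complex that starts anaphase, read 239.7, 234.8, 169.6 and 191.8 in the TNBS pools, against 200.1 and 172.4 in week 6 saline and 240.1 in later saline. At week 10 both were lower than later saline, Plk1 by 1.48-fold and Cdc20 by 1.42-fold. A second Plk1 probe set with similar signals read 147.0, 99.1, 85.9 and 82.5 in TNBS colon at weeks 6, 8, 10 and 12, against 121.6 and 92.7 in week 6 saline and 98.8 in later saline. That probe set put TNBS and saline level at week 8, where the brighter one put TNBS above.

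Cks2, a small subunit of the cyclin-dependent kinases, read 389.4, 449.7, 302.4 and 386.9 in TNBS colon at weeks 6, 8, 10 and 12, against 246.6 and 266.0 in week 6 saline and 364.2 in later saline. Stmn1, a microtubule-destabilising protein, read 833.8, 920.4, 780.1 and 712.9 in the TNBS pools, against 692.0 and 668.3 in week 6 saline and 743.2 in later saline. Both had their highest signal in the TNBS pool of week 8. Aurkb, the kinase of the chromosomal passenger complex, read 102.3, 90.3, 13.2 and 78.4 in the TNBS pools, against 16.8 and 68.7 in week 6 saline and 33.8 in later saline. With 3 of its 7 signals under 50, Aurkb was at least 1.81-fold higher with TNBS at week 8 and at least 1.57-fold higher at week 12, and the 2 arrays of 1 saline pool lay on both sides of 50.

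Among S phase genes, Pcna, the sliding clamp of the replication polymerases, read 495.7, 449.2, 312.3 and 450.5 in TNBS colon at weeks 6, 8, 10 and 12, against 290.3 and 256.8 in week 6 saline and 362.2 in later saline. It was 1.82-fold higher with TNBS at week 6 and 1.24-fold higher at both week 8 and week 12. Pcna was the only S phase gene above all saline arrays at week 8. Rrm1, the large subunit of ribonucleotide reductase, read 173.3, 122.2, 100 and 104.7 in the TNBS pools, against 118.5 and 88.8 in week 6 saline and 128.7 in later saline. Its log2 difference was 0.76 at week 6 and -0.07 at week 8, so that its TNBS signal stood out at week 6 alone.

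Of the MCM helicase subunits, Mcm5 read 345.4, 171.2, 171.0 and 346.4 in TNBS colon at weeks 6, 8, 10 and 12, against 283.6 and 303.3 in week 6 saline and 306.7 in later saline. At weeks 8 and 10 it was 1.79-fold lower than later saline, and the saline arrays differed among themselves by less than that. Mcm5 therefore had its low values in the 2 middle TNBS pools and not in those of weeks 6 and 12.

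Mcm2 read 159.1, 96.5, 88.7 and 117.3 in TNBS colon at weeks 6, 8, 10 and 12, against 104.9 and 112.9 in week 6 saline and 112.6 in later saline. Mcm4 read 144.9, 102.9, 90.3 and 79.5 in the TNBS pools, against 78.4 and 119.1 in week 6 saline and 108.1 in later saline. Both were higher at week 6 (log2 0.55 and 0.58), but for Mcm4 the repeated saline arrays differed by log2 0.60. Mcm3 read 201.2, 123.4, 103.8 and 106.0 in the TNBS pools, against 152.7 and 165.8 in week 6 saline and 137.7 in later saline. Mcm7 read 141.1, 85.7, 115.0 and 163.9 in the TNBS pools, against 150.9 and 131.6 in week 6 saline and 134.0 in later saline. Mcm3 was above every saline array at week 6 and below each of them at weeks 8, 10 and 12, while Mcm7 was level with saline at week 6 (log2 0.00) and 1.56-fold lower at week 8. A second, dimmer Mcm3 probe set read 95.5, 54.3, 65.3 and 55.9 in the TNBS pools. Its saline signals were 66.6 and 62.5 at week 6 and 54.4 later. It was thus higher with TNBS at week 6, level at week 8 and above later saline at weeks 10 and 12. With the mean of both probe sets, the Mcm3 log2 difference at week 10 was -0.07 and not -0.41.

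Tk1, a thymidine kinase that salvages nucleotides for replication, read 205.6, 120.0, 112.1 and 187.7 in TNBS colon at weeks 6, 8, 10 and 12, against 154.1 and 185.6 in week 6 saline and 184.2 in later saline. It was 1.53-fold lower at week 8 and 1.64-fold lower at week 10, and level with saline at week 12 (log2 0.03). Its course over the weeks was thus like that of Mcm5. Lig1, the ligase that joins the fragments of the lagging strand, read 114.6, 92.3, 91.0 and 78.0 in the TNBS pools, against 102.2 and 115.7 in week 6 saline and 94.9 in later saline. Ccne1, cyclin E1 of the entry into S phase, read 98.8, 90.7, 66.1 and 84.4 in the TNBS pools, against 91.3 and 139.9 in week 6 saline and 118.4 in later saline. Ccne1 was the only S phase gene below saline at week 6 (log2 -0.19), it reached 100 in saline pools alone, and its repeated saline arrays differed by log2 0.62.

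**Figure D3:**
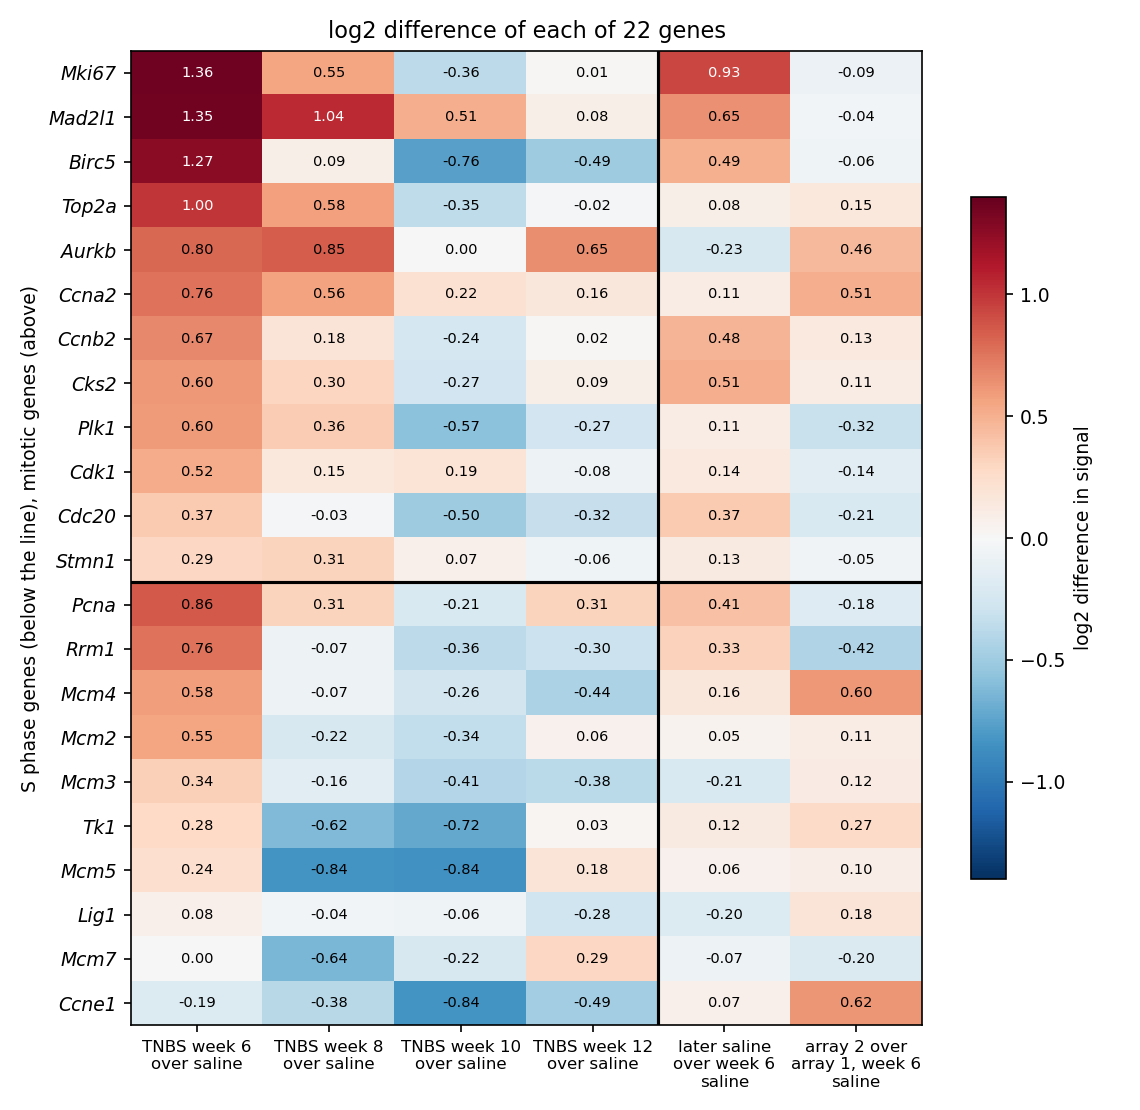
Log2 difference in signal of each of 22 genes (rows; mitotic genes above the line, S phase genes below) in the 4 comparisons of TNBS with saline, between the saline pools and between the repeat arrays of the week 6 saline pool. Mad2l1 is positive in all 4 comparisons with saline, and Mcm5 reads -0.84 at weeks 8 and 10.

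The lists parted at week 8. There 11 of 12 mitotic genes were higher in TNBS colon than in later saline, with a median log2 difference of 0.33, against 42.8% of all genes, and 9 of 10 S phase genes were lower, with a median of -0.19, against 56.5% of all genes. The median of all genes was -0.07. Ccne1 reached 100 in saline pools alone, so the filter fixed that it was lower at weeks 8, 10 and 12. It lends the S phase counts of those weeks no support. Top2a and Aurkb reached 100 in TNBS pools alone, Top2a at week 8 too, and they lend the mitotic counts no support. In the later-chosen subset with at least 100 in both saline pools, 7 of 8 mitotic genes were higher and 7 of 8 S phase genes, Ccne1 among them, were lower. Of all 3538 genes of that subset, 41.6% were higher and 2063 were lower. Apart from Pcna, each S phase gene had a lower difference than the lowest mitotic gene, Cdc20, at -0.03, though Lig1 was close to it at -0.04. Most week 8 differences lay within the largest difference of the listed genes between repeat arrays, log2 0.62. Only Mad2l1 and Aurkb of the mitotic genes and Mcm5, Mcm7 and Tk1 of the S phase genes exceeded it. Mad2l1 alone was at least 2-fold higher at this week, at 2.06-fold, where 1.53% of all genes were, and no gene of the lists was at least 2-fold lower, where 1.74% were. The S phase median minus the mitotic median was -0.52 at week 8, compared with -0.40 at week 6, -0.10 at week 10 and -0.13 at week 12. Genes of a list are not replicates, so this contrast has no test. With arrays scaled to equal medians, which moved the median of all genes up by 0.18 at week 8, the S phase minus mitotic median was -0.50, but only 5 of 10 S phase genes were then lower than saline, with a median of -0.01 against 0.11 for all genes. Under quantile normalization 6 of 10 S phase genes were lower, with a median of -0.06 against -0.03 for all genes, and the S phase minus mitotic median was -0.37 at week 8 and -0.39 at week 6, so that the order of these weeks turned.

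With signals under 50 again set to 50 and the TNBS pools set against all 3 saline arrays, the TNBS week 8 signal was above the highest for 11 mitotic genes and 1 S phase gene (29.2% of all genes) and below the lowest for 7 S phase genes and no mitotic gene (41.1% of all genes). The week 6 signal was above all saline arrays for 11 mitotic and 7 S phase genes (26.7% of all genes). Top2a and Aurkb were among the mitotic genes above at both weeks, and Ccne1 among the S phase genes below at week 8. Because of how they passed the filter, they lend these counts no support. From TNBS pool to TNBS pool, the week 8 signal was below the week 6 signal for 10 of 10 S phase genes and 8 of 12 mitotic genes, where 54% of all genes were. Over all 7 arrays, 7 of 12 mitotic genes were highest in the TNBS pool of week 6 and 4 in that of week 8. Of the S phase genes, 6 of 10 were highest at week 6 and 0 at week 8. The share of all genes highest in each pool was not counted, so these counts describe the lists alone. The median log2 difference of week 8 over week 6 was -0.60 for S phase genes, -0.06 for mitotic genes and -0.05 for all genes. That last comparison crosses the step in the beta-actin ratio given above, whose part in the result was not tested.

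At week 10, 10 of 10 S phase genes and 7 of 12 mitotic genes were lower in TNBS colon than in later saline, where 50.6% of all genes were lower and 48.9% higher. The filter fixed the place of Ccne1 among the lower genes, so it lends the S phase counts no support. Medians were -0.35 for S phase and -0.26 for mitotic genes, and 0.00 for all genes. No gene of either list differed 2-fold, against 0.834% of all genes higher by that much and 0.649% lower. Mad2l1, Ccna2, Cdk1 and Stmn1 were the 4 mitotic genes with TNBS higher. The week 10 signal was below all saline arrays for 4 mitotic genes, Birc5, Top2a, Cdc20 and Plk1, and 7 S phase genes (30.6% of all genes) and above them for 4 and 0 (30.3%). The week 10 mitotic result depended on the control: set against the week 6 saline pool, its median was 0.22. With equal array medians, which moved the median of all genes up by 0.14, 9 of 10 S phase genes were lower, with a median of -0.22.

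At week 12 both lists were spread around saline, with 6 of 12 mitotic and 5 of 10 S phase genes higher in TNBS colon, where 49.8% of all genes were. The medians were 0.00 for mitotic and -0.13 for S phase genes, and 0.00 for all genes, and no gene of the lists differed 2-fold, against 0.719% of all genes higher and 0.881% lower by that much. The week 12 signal was above all saline arrays for 6 mitotic and 5 S phase genes (31.9% of all genes) and below them for 1 and 3 (29.3%). The week 12 signal was above the week 10 signal for 8 S phase and 8 mitotic genes, where 51.2% of all genes were. Mcm5, Mcm7 and Tk1, all lower than later saline at weeks 8 and 10, were above it at week 12.

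**Figure D4:**
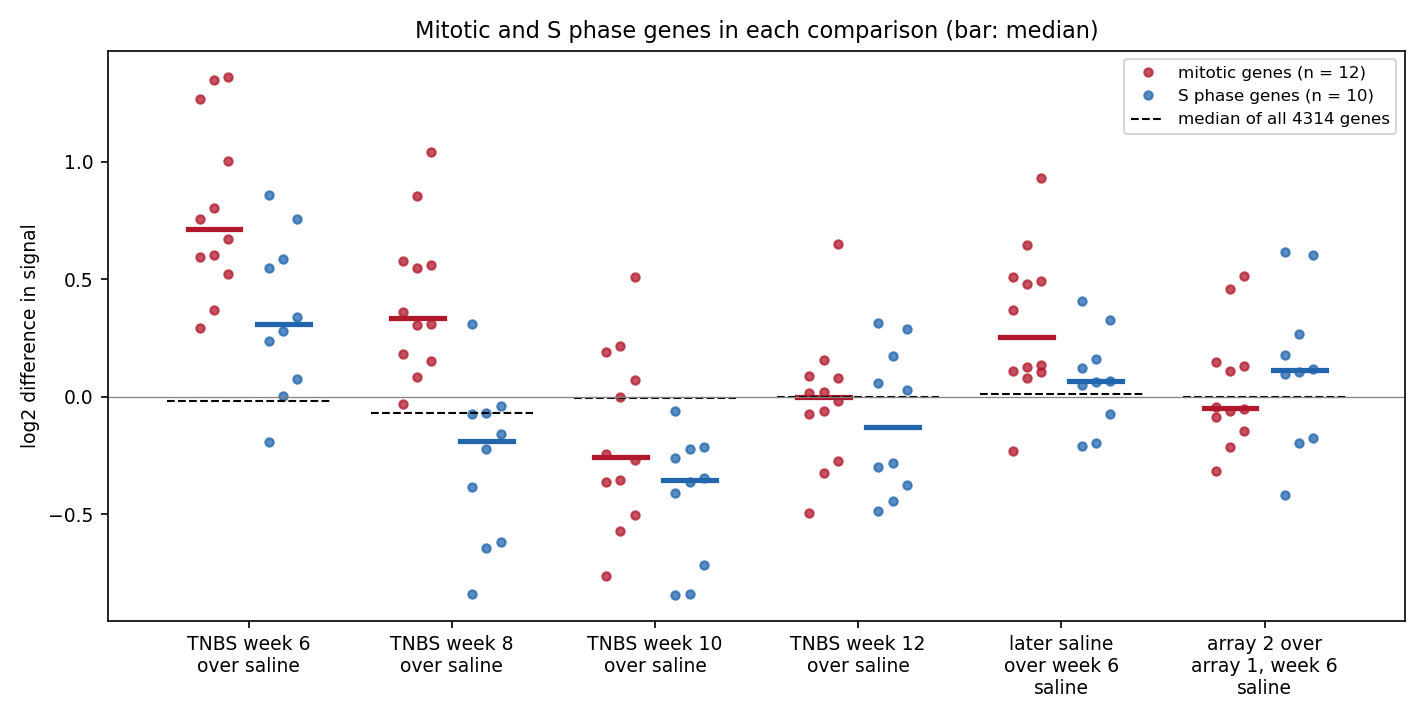
Log2 difference in signal of 12 mitotic and 10 S phase genes in each comparison, with solid bars at the list medians and dashed lines at the median of all 4314 genes. At week 8 the list medians are 0.33 and -0.19, at week 6 they are 0.71 and 0.31, and at week 10 they are -0.26 and -0.35.

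The saline pools also differed from each other. Later saline exceeded week 6 saline for 11 of 12 mitotic genes (median log2 0.25) and 7 of 10 S phase genes (median 0.07), where 51.5% of all genes did, and was above both week 6 saline arrays for 9 mitotic and 3 S phase genes (38.5% of all genes). Mki67 (0.93), Mad2l1 (0.65), Cks2 (0.51) and Birc5 (0.49) had the highest such differences. Set against later saline in place of its own control, the week 6 TNBS pool still had higher Birc5 by log2 0.78, Mad2l1 by 0.70 and Mki67 by 0.43. Top2a was higher by 0.92, but it passed the filter through TNBS pools alone. Its place above later saline was thus fixed by the filter and lends this comparison no support. The saline pools differ in week and in the beta-actin ratio, and the part of either was not tested. Between the repeat arrays of the week 6 saline pool, array 2 over array 1, the medians were -0.05 for mitotic and 0.11 for S phase genes. No gene of the lists differed by more than log2 0.62, whereas all kept genes ranged from -1.53 to 2.04. This covers array error and not the difference between pools. Of the TNBS differences at week 6, those of Mki67, Birc5, Top2a, Ccna2, Ccnb2, Mad2l1, Aurkb, Pcna and Rrm1 exceeded 0.62 in size.

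Models across pools made no call. In limma's pooled model of 4 TNBS against 2 saline pools, 0 of 4314 genes passed an adjusted p of 0.05, and 121 higher (2.8%) and 98 lower genes (2.27%) had an unadjusted p under 0.05. These included 2 of the 22, Mad2l1 with a log2 difference of 0.87 ± 0.30 (SE; limma adjusted p = 0.886) and Ccna2 with 0.49 ± 0.20 (SE; limma adjusted p = 0.886). Both were higher with TNBS in all 4 comparisons. The term for a TNBS difference at week 6 unlike the later one also called 0 genes, with 49 positive (1.14%) and 31 negative (0.719%) at an unadjusted p under 0.05. Birc5 was the 1 gene of the lists among these, at 1.66 ± 0.61 (SE; limma adjusted p = 0.999). Simulated data of 4314 genes held 50 genes at each set difference of log2 0.5, 1, 2 and 3. There the pooled model recovered 10% of genes set at log2 0.5 and 90% of those set at log2 1. The term recovered 0% and 8% of them. Each such gene had a single set difference, and all genes were given the same spread. In the arrays, the S phase median was 0.31 at week 6 and -0.35 at week 10, and the mitotic median 0.71 and -0.26. Recovery of differences that turn sign between weeks was not tested, so these shares are not applied to the genes of either list. A missing call for them is not read as no difference.

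Levels under 100 left 10 genes out of these counts. Of the S phase genes, Rrm2, the small subunit of ribonucleotide reductase, lay between 35.3 and 86.9 and Fen1, the flap nuclease, between 40.2 and 84.4, each highest in the TNBS pool of week 6. Pola1, of the polymerase that primes replication, lay between 45.9 and 76.0, highest in the TNBS pool of week 12, and its primase Prim1 between 16.1 and 36.3. E2f1, the activating factor itself, did not pass 44.3, and Mcm6 did not pass 14.1. Of the mitotic genes, the motor Kif11 lay between 37.7 and 81.2 and the kinase Aurka between 34.1 and 60.8. Both were highest in the TNBS pools of weeks 6 and 8, which were level. Kif11 read 80.5 and 81.2 there, and Aurka 60.7 and 60.8. Cenpa, the centromeric histone, lay between 56.7 and 83.5, and the checkpoint kinase Bub1 did not pass 35.9. Of the 22 genes, 16 had at least 100 in both saline pools, 8 of each list. Among these 16 the medians were 0.60 for mitotic and 0.31 for S phase genes at week 6, and 0.31 and -0.30 at week 8. Over all 3538 genes with at least 100 in both saline pools, the medians were -0.04 and -0.08.

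Other genes of the same pathways were described by the same measures. Of 45 further mitotic genes, 41 were on the array and 23 were kept, and their medians were 0.48, 0.33, -0.11 and -0.03 at weeks 6, 8, 10 and 12, with 19, 17, 11 and 8 genes higher in TNBS colon. Of all 4314 kept genes, 47.3%, 42.8%, 48.9% and 49.8% were higher at those weeks. Kif23, a motor of cell division, read 164.0 in TNBS colon and 74.4 and 93.3 in saline at week 6, and 244.7 in TNBS colon and 142.6 in saline at week 8. Smc4, a condensin subunit, read 350.5 in TNBS colon and 184.3 and 178.1 in saline at week 6, and 490.6 in TNBS colon and 276.6 in saline at week 8, in each case with TNBS colon higher. Nusap1, a spindle protein, was 1.96-fold higher at week 6 and 1.49-fold higher at week 8. Cks1b, listed also with the G1 kinases, was 2.07-fold higher at week 6 (203.0 in TNBS colon, 80.7 and 119.1 in saline). At week 10, Prc1, which bundles spindle microtubules, was 1.68-fold lower, whereas Plk4, the centriole kinase, was at least 2.12-fold higher, with 105.8 in TNBS colon and 48.2, under 50, in saline.

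Of 45 further replication genes, 39 were on the array and 18 were kept, and their medians were 0.14, -0.08, -0.19 and -0.05 at weeks 6, 8, 10 and 12, with 14, 7, 4 and 7 genes higher in TNBS colon. The shares of all 4314 kept genes that were higher were 47.3%, 42.8%, 48.9% and 49.8%. Orc4, of the origin recognition complex, was 1.86-fold higher at week 6 and 1.16-fold higher at week 8. Rpa3, of the single-strand binding complex, was 1.83-fold higher at week 6 and near saline at week 8 (log2 -0.04). Orc6 and Top1, a topoisomerase that relaxes DNA ahead of the fork, were higher by log2 0.58 and 0.59 at week 6 and by 0.68 and 0.67 at week 8. At week 10, of the clamp loader subunits Rfc5 was 1.54-fold lower and Rfc1 was 1.46-fold higher. These lists differ from the first ones in their genes but come from the same pools.

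Of 22 G1 cyclins, kinases and partners, 15 were on the array and 10 were kept, with medians of 0.16, 0.09, -0.09 and 0.07 at weeks 6, 8, 10 and 12. Tfdp1, the partner of E2F factors, was 1.42-fold higher at week 6 and 1.26-fold lower at week 10, Cdk2 was 1.13-fold higher at week 6 and Ccnd1, cyclin D1, was 1.13-fold higher at week 6. Ccnd2, cyclin D2, was 2.23-fold lower at week 10, at 61.3 in TNBS colon and 136.4 in later saline, but its repeat saline arrays read 163.3 and 103.5. Of 24 cell cycle inhibitors, 20 were on the array and 14 were kept, with medians of -0.13, -0.01, -0.13 and -0.12. Gadd45g, a stress-induced growth arrest gene, was at least 2.67-fold lower at week 6, and Cdkn2d and Cdkn2b, inhibitors of the G1 kinases, were 1.80-fold and 1.45-fold lower. Gadd45b was 1.66-fold higher at week 6, at least 2.19-fold lower at week 8 and 1.65-fold lower at week 10, when Gadd45a had a log2 difference of -0.49.

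Signals of other cell types also differed over the same pools. For 9 pan-leukocyte markers on the array, of 10 listed, the summed signal was 3435.5, 2236.5, 2082.6 and 2078.4 in TNBS colon at weeks 6, 8, 10 and 12, against 1825.5 and 1790.8 in week 6 saline and 1671.4 in later saline. For 13 of 15 B cell markers it was 4744.4, 6025.1, 4845.7 and 4551.2 in the TNBS pools, against 3927.7 and 3963.0 in week 6 saline and 4789.2 in later saline, and the median log2 difference of the 8 kept was 0.45 at week 6, with 8 higher in TNBS colon, and 0.25 at week 8, with 5 higher. Among all kept genes, 47.3% were higher at week 6 and 42.8% at week 8. For 14 of 14 macrophage markers the summed signal was 8951.1, 5662.1, 6283.5 and 5945.9 in the TNBS pools, against 5625.9 and 5202.8 in week 6 saline and 5454.5 in later saline. For 10 of 12 absorptive colonocyte markers it was 10545.2, 19864.7, 17384.8 and 16771.0 in the TNBS pools, against 16379.7 and 14552.7 in week 6 saline and 19989.6 in later saline. The sum of 17 general epithelial markers ranged over 26074.8 to 35708.2 in TNBS pools and 31190.0 to 32578.2 on saline arrays. Pan-leukocyte, macrophage, mast cell, T cell, fibroblast and endothelial sums were highest in the TNBS pool of week 6, those of B cell, general epithelial, goblet cell, smooth muscle and exocrine pancreas markers in that of week 8, and that of absorptive colonocyte markers in later saline. The part of these cell types in the cell cycle values was not tested.

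Among the remaining marker lists, 7 mast cell genes summed to 3940.2, 2282.1, 1114.1 and 346.8 in TNBS colon at weeks 6, 8, 10 and 12, against 657.6 and 798.7 in week 6 saline and 580.3 in later saline. Exocrine pancreas genes, 6 of 12 listed, summed to 5796.0, 7627.9, 2198.5 and 2436.8 in the TNBS pools, against 2249.5 and 1900.2 in week 6 saline and 1964.0 in later saline. Sums of 12 of 14 T cell genes were 309.0 to 490.8 in TNBS pools and 356.2 to 383.7 on saline arrays, with 3 genes reaching 100. Goblet cell, fibroblast, smooth muscle and endothelial sums were 22331.2 to 41682.5, 5332.3 to 7473.6, 14577.8 to 21203.3 and 514.5 to 777.6 in TNBS pools. On saline arrays the same lists summed to 28428.7 to 38756.4, 4825.4 to 5903.3, 17527.1 to 18787.7 and 584.3 to 679.4. Their part in the cell cycle values was likewise not tested.

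**Figure D5:**
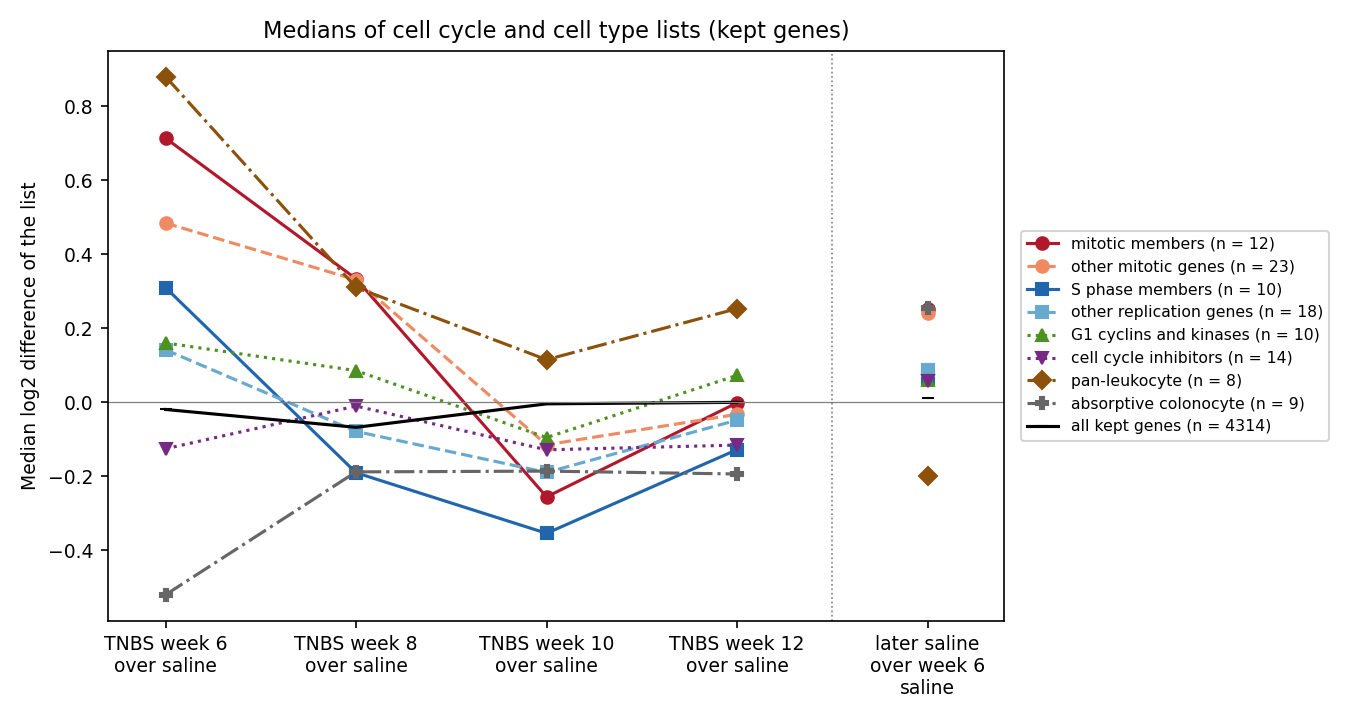
Median log2 difference of kept genes of each list in the 4 comparisons of TNBS with saline and between the saline pools (right of the dotted line). Mitotic members read 0.71 at week 6 and 0.33 at week 8, S phase members 0.31 and -0.19, and pan-leukocyte markers lie above 0 at all 4 weeks.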

How the data were processed

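The deposited values are linear signal intensities. The authors computed them in Affymetrix Microarray Suite 5.0 with a target of 150, from 10 µg of pooled total RNA of tissue 4 ± 0.5 cm from the anus, per the labels. Scaling to a common target makes each value relative to its array, and detection calls were not used. Of 12488 probe sets, 66 controls were left out, 10833 had 1 symbol, 396 several and 1193 none in the platform annotation of 2016, and 10817 of the 10833 were found in the RefSeq table of GRCm38.p6. Where a gene had several probe sets, that of highest mean log2 signal stands for it. A floor of 50 was set before log2, both week 6 saline arrays were averaged into 1 value, and genes were kept if any pool reached 100.

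The week 6 TNBS pool was compared with week 6 saline, and the 3 later TNBS pools with later saline, as the series' design states; a 2-fold difference was counted, with no test. Models were fitted on all 4314 kept genes with limma 3.58.1 in R 4.3.3 (trended empirical Bayes, two-sided, Benjamini-Hochberg, threshold 0.05). The pooled model took the control set as covariate, leaving 3 residual degrees of freedom, and the week 6 interaction term left 2. Pools of different weeks serve as replicates there, so p-values reflect how pools vary, with time as part of it, and say nothing of variation among mice. Both models were tested on simulated data. Precision is limited by the number of arrays.

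The members, pathway lists and marker lists were chosen with earlier results of these data known. Values on every array are printed for the kept members, which covers the rule for named genes: members differing at least 2-fold, and in each role the 4 with the largest differences at week 6 and at week 10. Of each other pathway list, the 4 kept genes with the largest difference at week 6 and the 2 at week 10 are named. Alternatives were floors of 25 and 100, log2(value + 50), equal array medians, quantile normalization, the mean of probe sets, no filter, a filter on the mean, each saline array left out, the other saline pool as control, roles without Mki67, Ccna2, Stmn1 and E2f1, and for the models each TNBS pool left out, no trend and no control set covariate. One alternative, at least 100 in both saline pools, was added after seeing the data.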

Additional observations from a re-analysis of the deposited data

How the results depend on the processing

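Over 13 settings, the S phase minus mitotic median kept its sign at week 6 (-0.47 to -0.11) and week 8 (-0.92 to -0.37). At week 10 it was -0.51 to 0.04, above 0 under quantile normalization, and at week 12 it was -0.13 to 0.07. The mitotic median was 0.46 to 0.88 at week 6 and 0.23 to 0.64 at week 8, and the S phase median 0.23 to 0.44 at week 6, -0.30 to -0.01 at week 8 and -0.39 to -0.22 at week 10. With the other saline pool as control, the mitotic median was 0.46 at week 6, 0.64 at week 8 and 0.22, of opposite sign, at week 10, the median of all members at week 8 was 0.39, and the S phase minus mitotic median was -0.11, -0.92 and -0.51 at weeks 6, 8 and 10. Members at least 2-fold higher were then 1, 2 and 1 at weeks 6, 8 and 10. A filter on the mean gave -0.19 for S phase minus mitotic at week 6. The count of members at least 2-fold higher was 1 at week 6 and 0 at week 8 with log2(value + 50), 2 at week 8 and 1 at week 12 with a floor of 25, and 1 at week 6 and 0 at week 8 among genes with at least 100 in both saline pools, where 7 of 8 mitotic members were higher at week 8. With the mean of probe sets, 5 of 8 kept S phase members were higher at week 6. Under equal array medians the median gene shifted by 0.18 (week 8) and 0.14 (week 10), and 5 S phase members were lower at week 8. The cause of these shifts was not tested. limma's pooled model called 17 genes with no filter and no member. Leaving out 1 TNBS pool or 1 saline array gave 0 to 2 called genes, 2 without the week 12 TNBS pool, and no member. The interaction term called 253 genes with a floor of 100 and 488 with no filter. In each case 1 member was called, Mcm4 (log2 0.51) and Fen1 (log2 1.07). In those settings 363 of 4384 and 2890 of 8251 genes had equal values in the 3 later TNBS pools. Mcm4 and Fen1 were not equal there, but lay on or near the floor. At weeks 8, 10 and 12 Mcm4 read 102.9, 90.3 and 79.5, against a floor of 100. Fen1 read 53.8, 40.2 and 55.2, against a floor of 50. The part of the floor in these calls was not tested. No paired analysis was possible because each group is 1 pool and the replicate numbers of the 2 saline arrays mark repeat arrays of that pool. Under quantile normalization 6 S phase members were lower at week 8, and the week 6 S phase minus mitotic median (-0.39) then exceeded that of week 8 (-0.37) in size. By the bounds used, 1 SD of 1 array (0.202) for medians and genes and 1.5 times for counts, 420 other main values and 1041 single-gene values stayed within, and 90 single-gene values did not. Signals near 50, as for Aurkb, have no order below it.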
